A study of Mus musculus with 8 samples.

Results

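The genes followed here encode the enzymes that turn profilaggrin into filaggrin and take filaggrin apart, together with the peptidylarginine deiminases that modify it. They were the rows of the gene count table whose Ensembl identifiers carry the symbols *Asprv1*, *Casp14*, *Blmh*, *Padi1*, *Padi2*, *Padi3*, *Padi4*, *Furin*, *Prss8* and *St14* in the mouse GENCODE annotation, 10 genes of 55416 in the table. All 10 passed the filter on low counts, which 13147 genes passed. They were read in 8 RNA-seq libraries of dorsal epidermis from mice at postnatal day 4. Of these, 4 libraries were labelled as epidermal *Rora* knockouts (RoraEKO, replicates A3, B4, C2 and C3) and 4 as WT (control, replicates A1, B1, C1 and C6). The knockouts came from *Rora* flox/flox mice crossed with K14-Cre mice, in which the keratin 14 promoter drives Cre in basal keratinocytes and the cells they give rise to, hair follicles included. The alleles that the control littermates carried are not given in the sources used here. The epidermis was peeled off after brief heating, and libraries were made from polyadenylated RNA with a stranded kit.

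Profilaggrin is a large, insoluble precursor stored in the keratohyalin granules of granular keratinocytes. On the way into the cornified layer it is dephosphorylated and cut into filaggrin monomers that bundle keratin filaments. Deimination of arginine to citrulline then loosens filaggrin from the keratins, and further proteolysis yields the free amino acids that hold water in the cornified layer. The same deiminases act in the hair follicle, where *Padi3* and trichohyalin work in the inner root sheath and medulla.

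Library totals ran from 17286903 to 26705533 counts. Values are given as counts per 1000000 counts after TMM scaling (CPM), and a floor of 3 counts lay between 0.113 and 0.196 CPM. *Rora* itself was at 212 ± 66.6 CPM in the control and at 196 ± 34.6 CPM in the RoraEKO libraries (n = 4 each, SD), and the log2 ratio was -0.11 (edgeR quasi-likelihood, adjusted p = 0.877), so that the gene-level counts do not check the labels. *Xist* reached 416 CPM in control replicate C1 and 527 CPM in control replicate C6 and was at or under the floor in the other 6 libraries. The suprabasal keratins *Krt1* and *Krt10*, which define the tissue, reached 29965 ± 8117 and 23895 ± 4631 CPM in the control libraries (n = 4 each, SD), while the basal keratin *Krt14* was at 132 ± 60.9 CPM. Of the marker lists of 17 cell types, those of neutrophils and endothelial cells had 0 markers tested, and among the 72 tested markers of the other lists 0 passed the cutoffs in the edgeR quasi-likelihood test. The sums of erythroid and melanocyte markers overlapped between genotypes. All 5 erythroid markers had a log2 fold change above 0 (median 1.94), with sums of 47.8 to 334 CPM in the control and 125 to 1041 CPM in the RoraEKO libraries. All 5 melanocyte markers were below 0 (median -0.84), with sums of 25.2 to 56.2 and 17.32 to 33.2 CPM.

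None of the 10 genes passed the cutoffs used by the study, an adjusted p under 0.05 and a fold change over 1.5 (edgeR quasi-likelihood test p adjusted by Benjamini-Hochberg across all 13147 genes). Over all genes 5.51% passed, 2.30% as higher and 3.22% as lower in the RoraEKO libraries. An unadjusted p under 0.05 was found for 2 of the 10 genes, against 18.2% of all genes. They were *Casp14*, which was higher, as were 7.92% of all genes at that level, and *Furin*, which was lower, as were 10.3%. DESeq2 and the likelihood ratio test of edgeR each called 1 of them, *Casp14*. With the first letter of the sample titles as a block, the edgeR quasi-likelihood test called both *Casp14* (adjusted p = 0.0354) and *Furin* (adjusted p = 0.0206). The median log2 fold change of the 10 genes was -0.00049, with 5 genes above 0 and 5 below, and over all tested genes it was -0.04. Nothing says that the samples came from separate litters or days, so p-values measure the spread between these samples.

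**Figure D1:**
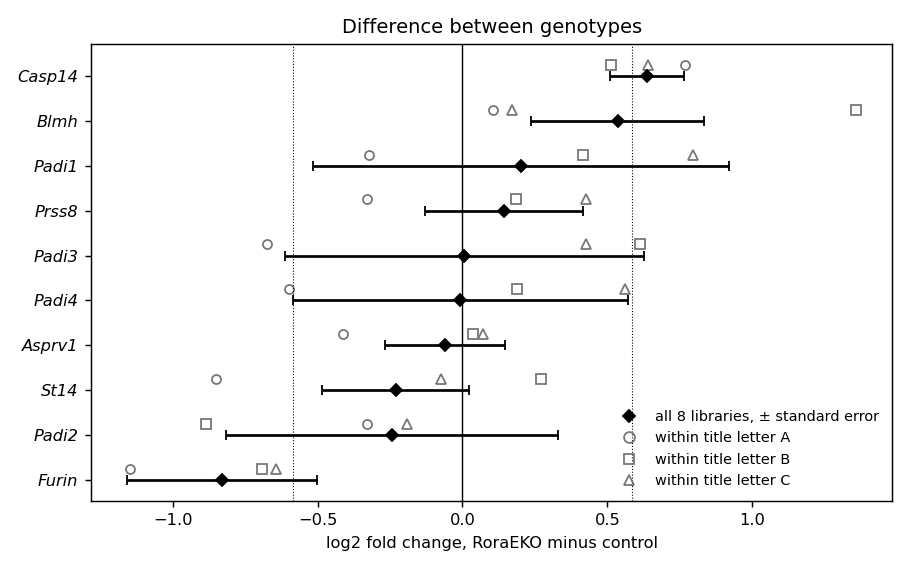
Log2 fold change of each gene (RoraEKO minus control). Diamonds with bars are all 8 libraries ± standard error, grey open symbols are the differences within sample titles that start with the same letter, and dotted lines mark a fold change of 1.5. *Casp14* and *Blmh* lie on the right and *Furin* and *Padi2* on the left of 0 within every letter, while *Asprv1*, *Padi1*, *Padi3*, *Padi4*, *Prss8* and *St14* take both signs.

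**Figure D2:**
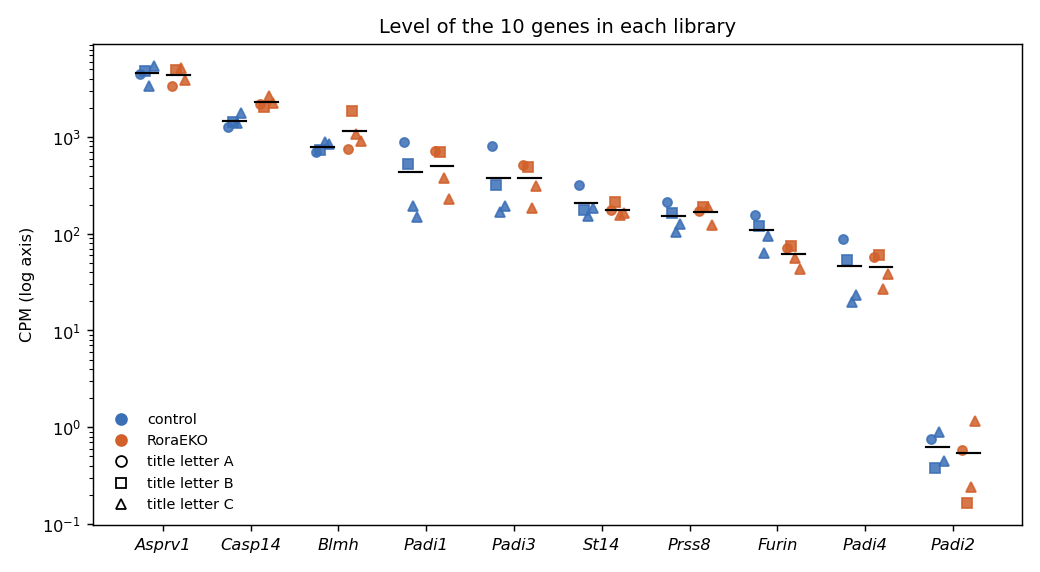
Level of the 10 genes in each library in CPM on a log axis, ordered by control mean. Points are single libraries, colour is the genotype, the symbol is the first letter of the sample title, and lines are means. The knockout points of *Casp14* sit above all control points, and *Padi1*, *Padi3* and *Padi4* spread widely within both genotypes.

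*Casp14* (ENSMUSG00000005355, chromosome 10 of GRCm39, as for all coordinates here, from 78547825 to 78554138) encodes caspase-14, a protease of cornifying keratinocytes that breaks filaggrin down into smaller peptides. It was at 1284, 1444, 1403 and 1773 CPM in the control replicates (A1, B1, C1, C6). In the RoraEKO replicates A3, B4, C2 and C3 it was at 2188, 2061, 2669 and 2265 CPM. Every knockout library lay above every control library, as in 5.40% of all tested genes (12.9% in either direction, 7.54% with the knockout libraries lower). The means were 1476 ± 209 and 2296 ± 263 CPM (n = 4 each, SD), a 1.56-fold higher level in the RoraEKO libraries. The log2 fold change was 0.64 with a standard error of 0.127, and the adjusted p of 0.0717 in the edgeR quasi-likelihood test missed the cutoff. Over 20 alternative fits the log2 fold change stayed above 0, from 0.58 to 0.80, with adjusted p from 0.000565 to 0.212. The gene passed the cutoffs in 4 of them, DESeq2, the likelihood ratio test, the title letter as a block and inner root sheath markers as a covariate. The last of these fits was chosen after seeing the data. *Casp14* was also the steadiest of the 10 genes within genotypes, with a standard deviation of 0.18 on the log2 scale against a median of 0.30 over all tested genes. The summed level of 6 spinous keratinocyte markers, of which *Krt1* and *Krt10* make up most, did not overlap between genotypes either, at 45028 to 70981 CPM in the control and 86356 to 107612 CPM in the RoraEKO libraries. Of these 6 markers 4 were above and 2 below 0, and 0 passed the cutoffs. Their part in the *Casp14* values was not tested.

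The 250 bases before the RefSeq start of *Casp14* are shown because this gene had the smallest p of the 10. They lie at chr10:78554128-78554377 on the minus strand of GRCm39, where they were found as an exact match, and capitals would mark the motifs searched. RORα binds the half-site AGGTCA, which was searched on both strands along with the TATA box TATAAA on the transcribed strand and the AP-1 site TGANTCA on both strands.
*Casp14*: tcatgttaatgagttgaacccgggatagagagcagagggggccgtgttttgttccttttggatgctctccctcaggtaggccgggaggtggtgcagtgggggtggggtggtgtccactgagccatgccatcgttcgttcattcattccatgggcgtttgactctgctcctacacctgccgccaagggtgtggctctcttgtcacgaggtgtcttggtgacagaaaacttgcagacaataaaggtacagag
None of these motifs occurs in that stretch. Sequences were matched for 8 of the 10 genes, with 9 starts in all. AGGTCA was in 0 of these 9 stretches, against 14% of the 32851 stretches of the same length in the RefSeq table, which is a description of these windows only.

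*Furin* (ENSMUSG00000030530, chromosome 7 from 80038333 to 80055184) encodes a proprotein convertase of the secretory pathway that cuts many precursors, and it or a related convertase releases the amino-terminal part of profilaggrin. The control replicates A1, B1, C1 and C6 were at 156, 120, 62.9 and 95.7 CPM. The RoraEKO replicates A3, B4, C2 and C3 were at 70.5, 73.9, 56.3 and 43.7 CPM. The genotypes overlapped through control replicate C1 alone, which lay below knockout replicates A3 and B4. The means were 109 ± 39.4 and 61.1 ± 13.9 CPM (n = 4 each, SD), a 1.78-fold lower level. The log2 fold change was -0.83 (SE 0.327, edgeR quasi-likelihood, adjusted p = 0.123). With control replicate C1 left out, the value was -1.02 and the gene passed the cutoffs, with an adjusted p of 0.0419 in the same test. The other 7 fits without 1 library did not call it, with adjusted p from 0.151 to 0.322. The fit with *Xist* as a covariate gave -1.18 (adjusted p = 0.0351), DESeq2 gave -0.80 (adjusted p = 0.0568), and in all the gene passed in 4 of 20 alternatives. Of these 4, the fit with inner root sheath markers as a covariate was chosen after seeing the data. Both control libraries with *Xist* have titles that start with C, so the *Xist* fit mainly sets controls A1 and B1 against knockouts of all letters. Within the titles that start with A, B and C the difference of mean log2 CPM was -1.15, -0.69 and -0.64.

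Of 8 other proprotein convertase genes, 4 were tested and 0 passed the cutoffs. *Pcsk6*, which encodes PACE4 and is expressed in granular keratinocytes, was at 121 ± 30.4 CPM in the control and at 120 ± 22.3 CPM in the RoraEKO libraries (n = 4 each, SD), and the log2 ratio was -0.01 (edgeR quasi-likelihood, adjusted p = 0.99). Among 14 genes whose products are cut by furin-type convertases, such as the Notch receptors, 0 passed the cutoffs. The highest of them was *Dsg1a*, a desmosomal cadherin, at 932 ± 246 and 942 ± 121 CPM (n = 4 each, SD), and the median log2 fold change was -0.02.

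*Asprv1* (ENSMUSG00000033508, chromosome 6 from 86595254 to 86606692) encodes SASPase, an aspartic protease of retroviral type that cuts the linkers between filaggrin repeats. Per kb of exon it had the highest level of the 10 genes. The control libraries A1, B1, C1 and C6 were at 4514, 4861, 3348 and 5447 CPM, and the RoraEKO libraries A3, B4, C2 and C3 at 3392, 4979, 5143 and 3911 CPM. The genotypes covered nearly the same range. The means of 4542 ± 884 and 4356 ± 844 CPM (n = 4 each, SD) gave a log2 fold change of -0.06 (SE 0.208, edgeR quasi-likelihood, adjusted p = 0.943).

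*Blmh* (ENSMUSG00000020840, chromosome 11 from 76815635 to 76878208) encodes bleomycin hydrolase, an aminopeptidase that turns filaggrin peptides and citrulline-containing fragments into free amino acids. The control libraries A1, B1, C1 and C6 were close together at 694, 731, 891 and 850 CPM. The RoraEKO libraries A3, C2 and C3 were at 747, 1065 and 901 CPM, and replicate B4 was at 1876 CPM. Replicate B4 therefore set most of the difference between the means, which were 791 ± 94 and 1147 ± 503 CPM (n = 4 each, SD). The sum of 6 basal keratinocyte markers was highest in the same library. It was 1198 CPM in B4 against 270.0 to 379 CPM in the other RoraEKO and 247 to 596 CPM in the control libraries. *Krt14* at 706 CPM and *Krt5* at 371 CPM made up most of it. *Krt15* was lowest in B4, at 55.4 CPM, and *Col17a1* and *Itgb4* were higher in control A1 than in B4. The part of these markers in the *Blmh* value was not tested. The log2 fold change was 0.54 (SE 0.299, edgeR quasi-likelihood, adjusted p = 0.361), and it was 0.19 without replicate B4 (adjusted p = 0.7). The breakdown of filaggrin ends with histidase, which makes urocanic acid from the freed histidine. Its gene *Hal* was at 934 ± 305 CPM in the control and 801 ± 162 CPM in the RoraEKO libraries (n = 4 each, SD), and the log2 ratio was -0.22 (edgeR quasi-likelihood, adjusted p = 0.731).

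*Prss8* (ENSMUSG00000030800, chromosome 7 from 127524888 to 127529294) encodes prostasin, and *St14* (ENSMUSG00000031995, chromosome 9 from 31000698 to 31043218) encodes matriptase, membrane-bound serine proteases that activate one another and are needed for profilaggrin processing in mouse epidermis. *Prss8* was at 214, 166, 103 and 126 CPM in the control replicates (A1, B1, C1, C6) and at 170, 189, 191 and 123 CPM in the RoraEKO replicates (A3, B4, C2, C3). *St14* was at 317, 177, 151 and 185 CPM in the same control replicates and at 176, 214, 155 and 162 CPM in the RoraEKO replicates. The genotypes overlapped for both genes, and control replicate A1 was the highest library for both. The log2 fold changes were 0.14 for *Prss8* (SE 0.274, adjusted p = 0.84) and -0.23 for *St14* (SE 0.253, edgeR quasi-likelihood, adjusted p = 0.692). The sign of the *St14* value rested on replicate A1, without which it was 0.048. Exons of *Kat8* overlap *Prss8* on the opposite strand, and the strand setting of the counting is not stated. *Kat8* was at 6.73 ± 0.373 CPM in the control libraries (SD, n = 4), with an adjusted p of 0.944 between genotypes. The exon-sharing opposite-strand genes of *Furin* (*Gm44851*) and *Padi1* (*Gm13032*) were at 0.21 ± 0.209 and 0.233 ± 0.134 CPM in the control libraries (n = 4, SD).

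Of 10 partners of these membrane proteases, 7 had a log2 fold change above 0, against 43.9% of all tested genes, with a median of 0.57. The cutoffs were passed by 1 of the 10, against 5.51% of all genes. This was *Tmprss13*, a related transmembrane serine protease. It was at 180, 180, 179 and 184 CPM in the control replicates (A1, B1, C1, C6) and at 232, 331, 369 and 284 CPM in the RoraEKO replicates (A3, B4, C2, C3). The control libraries thus differed by little and all knockout libraries lay above them (log2 ratio 0.75, SE 0.146, edgeR quasi-likelihood, adjusted p = 0.0202). It lost the call in 6 of 20 alternatives, among them *Xist* as a covariate (adjusted p = 0.0899) and each of control B1, RoraEKO B4 and control C1 left out (adjusted p = 0.0786, 0.055 and 0.0621). Over the 20 alternatives the log2 fold change of *Tmprss13* ran from 0.70 to 0.91. *Scnn1a*, a subunit of the epithelial sodium channel that prostasin can activate, also had genotypes that did not overlap, at 175 ± 28 and 249 ± 21.4 CPM (n = 4 each, SD), but its adjusted p was 0.0782. The inhibitor genes *Spint1* and *Spint2*, which restrain matriptase and prostasin, had log2 fold changes of -0.04 and -0.30, neither called (adjusted p 0.963 and 0.252). *Spint2* did not overlap between genotypes and was lower, at 168 to 210 CPM in the control and 129 to 164 CPM in the RoraEKO libraries. In the whole list 3 genes did not overlap and were higher, against 5.40% of all tested genes, and 1 did not overlap and was lower, against 7.54%. *Tmprss4*, the highest of the list in CPM, was at 437 ± 96.1 and 502 ± 47 CPM (n = 4 each, SD), with an adjusted p of 0.664. *F2rl1*, which encodes the protease-activated receptor PAR2, was at 23.9 ± 3.35 and 15.8 ± 4.5 CPM (SD, n = 4 each; adjusted p = 0.14).

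The deiminase genes lie together on chromosome 4 of GRCm39, in the order *Padi6*, *Padi4*, *Padi3*, *Padi1* and *Padi2*, over 225232 bases. The first 4 are read from the minus strand, and *Padi2* from the plus strand. Gaps of 2853, 10732 and 2330 bases separate the minus-strand genes, and 60557 bases separate *Padi1* from *Padi2*. *Padi6*, an oocyte gene, was under 1 CPM and was not tested. *Padi1* and *Padi3* are the deiminases known from the granular layer, and *Padi4* is best known from neutrophils.

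**Figure D3:**
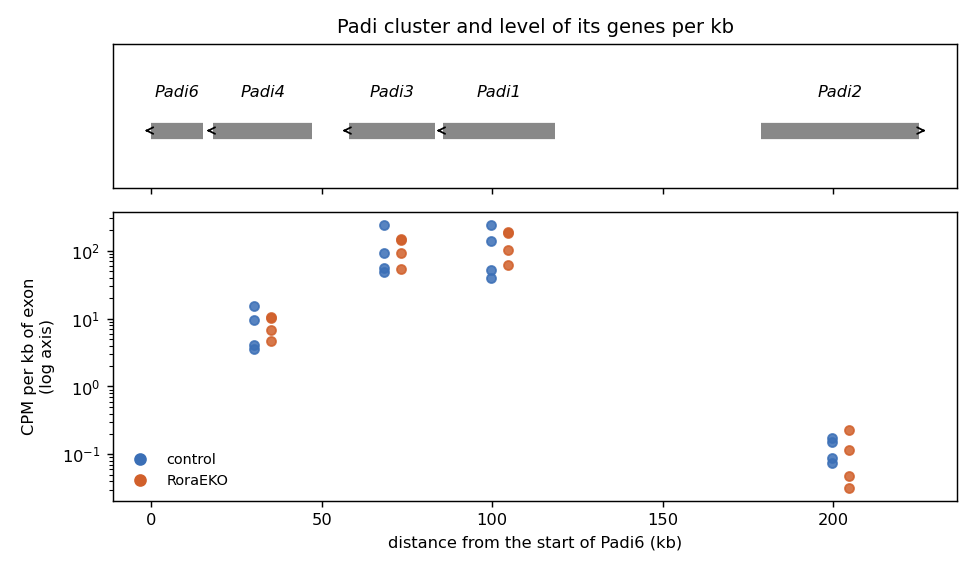
Padi genes along their cluster. The upper panel shows gene extents with the direction of transcription, and the lower panel the level of each library in CPM per kb of exon on a log axis, drawn at the centre of the gene (*Padi6* was not tested and has no points). *Padi3* and *Padi1* cover overlapping ranges, *Padi4* below them and *Padi2* at the bottom.

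*Padi1* (ENSMUSG00000025329, from 140540291 to 140573089) was at 891, 521, 195 and 149 CPM in the control replicates (A1, B1, C1, C6). In RoraEKO replicates A3, B4, C2 and C3 it was at 712, 696, 380 and 231 CPM. The spread within the control libraries, 5.97-fold from lowest to highest, was far wider than the difference between the genotype means of 439 ± 344 and 505 ± 238 CPM (n = 4 each, SD). The log2 fold change was 0.20 (SE 0.718, edgeR quasi-likelihood, adjusted p = 0.918).

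*Padi3* (ENSMUSG00000025328, from 140512672 to 140537960) was at 813, 321, 166 and 193 CPM in the same control replicates. In the RoraEKO replicates it was at 509, 492, 185 and 314 CPM. The means were almost equal, at 373 ± 301 and 375 ± 154 CPM (n = 4 each, SD). In the edgeR quasi-likelihood fit the log2 ratio was 0.01 (SE 0.62, adjusted p = 0.999).

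*Padi4* (ENSMUSG00000025330, from 140472808 to 140501939) was at 87.5, 53.3, 19.9 and 23.2 CPM in the control replicates (A1, B1, C1, C6) and at 57.8, 60.7, 26.5 and 38 CPM in the RoraEKO replicates (A3, B4, C2, C3). The log2 fold change was -0.01 (SE 0.577, edgeR quasi-likelihood, adjusted p = 0.999). For *Padi1*, *Padi3* and *Padi4* the SE was close to or above the log2 of a 1.5-fold change, in a comparison that leaves the differences between title letters within the spread. Without control replicate A1, the highest library of all 3, the log2 fold changes were 0.81, 0.72 and 0.51 for *Padi1*, *Padi3* and *Padi4*, and none was called (adjusted p = 0.408, 0.3 and 0.505).

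*Padi2* (ENSMUSG00000028927, from 140633647 to 140679897), the most widely expressed deiminase in other tissues, was close to the floor. The libraries held between 4 and 23 counts of it, or from 0.164 to 1.15 CPM. The means were 0.623 ± 0.247 and 0.535 ± 0.448 CPM (n = 4 each, SD), and the log2 ratio was -0.24 (edgeR quasi-likelihood, adjusted p = 0.907). No difference was detectable at this depth.

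In *Padi1*, *Padi3* and *Padi4* all 4 libraries whose titles start with A or B lay above all 4 whose titles start with C, as did 5.69% of all tested genes. The labels do not say what these letters mark. The A and B libraries ran from 521 to 891 CPM and the C libraries from 149 to 380 CPM in *Padi1*. The ranges were 321 to 813 against 166 to 314 CPM in *Padi3*, and 53.3 to 87.5 against 19.9 to 38 CPM in *Padi4*. Each letter held as many control as RoraEKO libraries. Within letters, the difference of mean log2 CPM between RoraEKO and control took both signs. It was -0.32, 0.42 and 0.80 in letters A, B and C for *Padi1*, -0.68, 0.61 and 0.43 for *Padi3*, and -0.60, 0.19 and 0.56 for *Padi4*. Within letter C both control libraries were those with *Xist*, so that genotype and *Xist* cannot be told apart there. In the 6 libraries with *Xist* near 0 the log2 fold changes were -0.42, -0.53 and -0.56 for *Padi1*, *Padi3* and *Padi4*, with adjusted p of 0.681, 0.61 and 0.462 (edgeR quasi-likelihood test). These libraries were controls A1 and B1 and knockouts A3, B4, C2 and C3. Every C library among them was thus a knockout, so that genotype and title letter are mixed in these values.

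**Figure D4:**
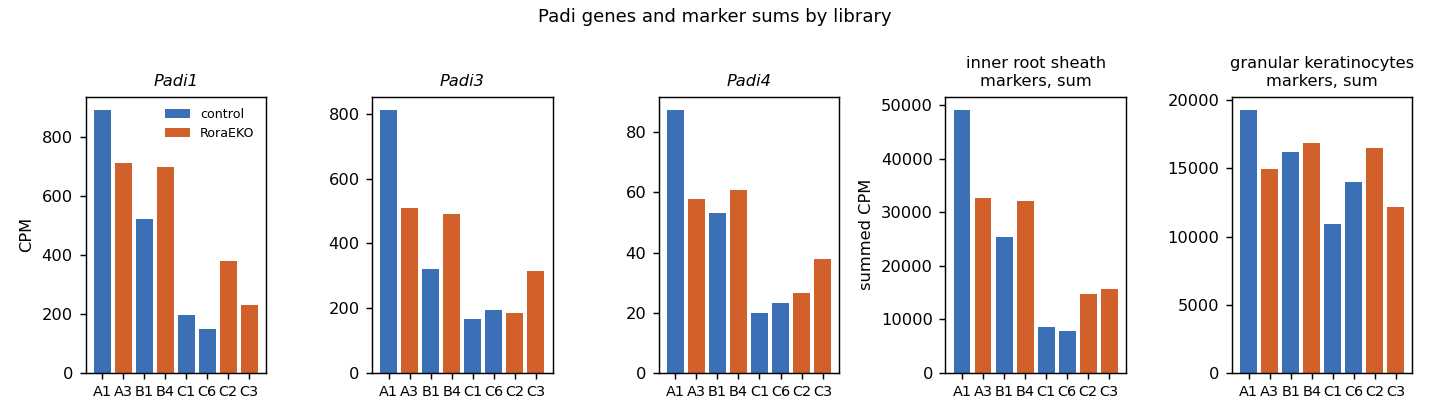
CPM of *Padi1*, *Padi3* and *Padi4* and summed CPM of the marker lists of the inner root sheath (7 genes) and of granular keratinocytes (7 genes), one bar per library, coloured by genotype and ordered by title letter. The 3 deiminase genes and the inner root sheath sum, mostly *Tchh* and *Krt71*, are high in the A and B libraries and low in the C libraries.

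Markers of the inner root sheath of the hair follicle followed the title letters in part. Of the 7 markers, 4 had all A and B libraries above all C libraries (*Tchh*, *Krt25*, *Krt27* and *Krt71*), and 3 did not (*Krt28*, *Krt72* and *Krt73*). The summed level of the 7 markers was 49144, 25354, 8500 and 7864 CPM in the control replicates (A1, B1, C1, C6). In RoraEKO replicates A3, B4, C2 and C3 it was 32586, 32030, 14769 and 15583 CPM. The C libraries had the lowest sums and A1 the highest, with *Tchh* and *Krt71* making up most of each sum. The summed level of 6 hair shaft cortex markers did not follow the letters, since B1 at 2267 CPM lay below C1, C2 and C3 at 2514, 2954 and 2774 CPM, and 0 of the 6 markers had all A and B libraries above all C libraries. Of the 7 markers, all were tested and 0 passed the cutoffs between genotypes. The summed level of 7 granular keratinocyte markers varied less, from 10955 to 19303 CPM in the control and from 12157 to 16839 CPM in the RoraEKO libraries. Neutrophil markers were near 0, with 0 of 9 tested and sums of at most 4.05 CPM in any library. The part of hair follicle content in the spread of the deiminases was not tested, and in whole epidermis more cells of a type and more RNA per cell cannot be told apart. *Tchh*, the gene of trichohyalin and a substrate of the enzyme that *Padi3* encodes, was at 8260 ± 5891 and 9296 ± 3239 CPM (n = 4 each, SD), and the log2 ratio was 0.17 (edgeR quasi-likelihood, adjusted p = 0.923).

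The sequences before the starts of these 3 genes are shown because their levels moved together from library to library. Over the 8 libraries Pearson r of log2 CPM was 0.850 for *Padi1* with *Padi3* and 0.902 with *Padi4*. For *Padi3* with *Padi4* it was 0.970. This was not particular to the deiminases, since *Padi1* reached 0.876 with *Prss8*, and *Padi3* reached 0.808 with *St14*. All 3 stretches are on the minus strand of chromosome 4 in GRCm39, at chr4:140573090-140573339 for *Padi1* and chr4:140537960-140538209 for *Padi3*, 250 bases each. For *Padi4*, 29 bases at chr4:140501540-140501568 are given, with an AP-1 site and a TATA box in capitals. These letters begin 54 and 31 bases before the RefSeq start of *Padi4*, within the extent of the gene in GENCODE.
*Padi1*: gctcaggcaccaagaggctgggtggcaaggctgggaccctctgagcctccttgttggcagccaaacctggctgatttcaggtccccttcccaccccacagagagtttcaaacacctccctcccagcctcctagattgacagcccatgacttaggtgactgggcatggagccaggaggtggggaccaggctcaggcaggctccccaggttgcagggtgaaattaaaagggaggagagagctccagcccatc
*Padi3*: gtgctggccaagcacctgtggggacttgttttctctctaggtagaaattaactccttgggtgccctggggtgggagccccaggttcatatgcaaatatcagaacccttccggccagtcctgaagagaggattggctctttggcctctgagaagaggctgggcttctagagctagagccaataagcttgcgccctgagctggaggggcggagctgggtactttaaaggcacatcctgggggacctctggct
*Padi4*: TGACTCAtgggctcgcctggcacTATAAA
Neither motif is in the stretches of *Padi1* and *Padi3*. Among all RefSeq stretches of this length, 7.59% held TATAAA on the transcribed strand and 6.75% held TGANTCA. *Padi3* and *Padi1* are read in the same direction, and the stretch before *Padi3* lies between both genes. Outside the cluster, the neighbour *Arhgef10l*, a guanine nucleotide exchange factor gene, was at 102 ± 9.3 and 140 ± 21.4 CPM (n = 4 each, SD), and it was not called (adjusted p = 0.0951).

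Levels of different genes were compared per kb of exon. In the control libraries the order was *Asprv1* at 1964 ± 382, *Casp14* at 614 ± 87 and *Blmh* at 122 ± 14.5 CPM per kb (n = 4 each, SD). *Padi1* and *Padi3* followed at 117 ± 91.5 and 108 ± 87.1, *Prss8* at 81.3 ± 26 and *St14* at 26.9 ± 9.64 CPM per kb. The last were *Furin* at 10.6 ± 3.84, *Padi4* at 8.12 ± 5.57 and *Padi2* at 0.123 ± 0.0486 CPM per kb. The lowest *Asprv1* library was above the highest *Casp14* library, and *Casp14* was likewise clear of *Blmh*. *Blmh*, *Padi1*, *Padi3* and *Prss8* overlapped in range, as did *Furin* and *Padi4*, and these neighbours did not differ beyond their spread. The highest *St14* library, at 41.1 CPM per kb, also lay above the lowest *Padi1* library, at 39.7 CPM per kb. By the longest transcript in place of all exons, the levels of *Blmh*, *St14*, *Furin* and *Padi4* were 260, 58.4, 18.9 and 15.2 CPM per kb. *Blmh* at 228 to 292 was then clear of *Prss8* at 55.1 to 114, and *St14* at 42.6 to 89.2 overlapped *Prss8*. In the RoraEKO libraries *Furin* and *Padi4* changed places, at 5.96 ± 1.35 and 8.09 ± 2.88 CPM per kb, and the other genes kept their rank.

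Likeness to other genes was taken as the Pearson correlation of log2 CPM over the 8 libraries, with the 3 highest of 13146 genes named and r in parentheses, as a description. *Asprv1* was closest to *Sbsn*, the gene of suprabasin of the upper epidermis, (0.976), *Ppm1d* (0.949) and *Cysrt1* (0.947). *Casp14* was closest to *Zbtb7c* (0.989), *Med24* (0.989) and *Samhd1* (0.984). *Blmh* was closest to *Slc38a2* (0.973), *Dcun1d3* (0.965) and *Fam53b* (0.960). *Padi1* was closest to *Ube2v1* (0.996), *Efna2* (0.995) and *Anpep* (0.993). *Padi2* was closest to *Pura* (0.940), *Mks1* (0.925) and *Chst14* (0.924). *Padi3* was closest to *Ephb1* (0.994), *Arid3a* (0.993) and *Rab13* (0.993). *Padi4* was closest to *Gm5278* (0.985), *Krt25*, an inner root sheath keratin, (0.978) and *Pgm2* (0.976). *Furin* was closest to *Yif1b* (0.989), *Fbxw8* (0.974) and *Prdx2* (0.972). *Prss8* was closest to *Zfand3* (0.968), *Ccng2* (0.967) and *Ern1* (0.964). *St14* was closest to *Cldn4*, a tight junction gene, (0.984), *Sp6* (0.983) and *Gucd1* (0.968). All these correlations contain the differences between title letters and between genotypes.

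The substrates and the other genes of the pathway were read from the same fit. Of 59 tested genes in 8 lists, 3 passed the cutoffs, 2 of them higher and 1 lower, 5.08% against 5.51% of all genes. The lower gene was *Hrnr*, which encodes hornerin, a relative of filaggrin. It was at 729, 1244, 1036 and 2128 CPM in the control replicates (A1, B1, C1, C6) and at 164, 460, 425 and 329 CPM in the RoraEKO replicates (A3, B4, C2, C3) (log2 ratio -1.90, edgeR quasi-likelihood, adjusted p = 0.0211). It lost the call in 5 of 20 alternatives, with *Xist* as a covariate (adjusted p = 0.102), in the libraries with *Xist* near 0 (adjusted p = 0.113), and without control B1, RoraEKO C2 or RoraEKO C3 (adjusted p = 0.0578, 0.0547 and 0.0728). Over the 20 alternatives the log2 fold change of *Hrnr* ran from -2.09 to -1.47, the latter in the libraries with *Xist* near 0. *Flg2*, another relative, was at 1601.6 ± 895 and 873 ± 371 CPM (n = 4 each, SD), and the log2 ratio was -0.88 (edgeR quasi-likelihood, adjusted p = 0.315). *Flg*, the gene of profilaggrin itself, was at 3531 ± 749 and 3566 ± 1034 CPM (n = 4 each, SD), and the log2 ratio was 0.01 (edgeR quasi-likelihood, adjusted p = 0.99). *Krt1* and *Krt10*, whose proteins filaggrin bundles, had every RoraEKO library above every control library with log2 fold changes of 0.70 and 0.66, but adjusted p of 0.287 and 0.274.

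The other higher gene was *Tgm5*, a transglutaminase that cross-links the cornified envelope, at 35.2 ± 6.35 and 62.4 ± 5.44 CPM (n = 4 each, SD), and the log2 ratio was 0.83 (edgeR quasi-likelihood, adjusted p = 0.0098). It kept the call in 19 of 20 alternatives and lost it with *Xist* as a covariate (adjusted p = 0.0624). Over the 20 alternatives its log2 fold change ran from 0.71 to 0.94. *Tgm1* and *Tgm3* were not called, with log2 fold changes of 0.70 and 0.46, and in all 3 transglutaminase genes every knockout library was above every control library, as in 5.40% of all tested genes. Of 13 tested genes for other proteases, inhibitors and enzymes of filaggrin breakdown, 7 were above and 6 below 0 and 0 passed the cutoffs. *Klk7*, a kallikrein of the cornified layer, was at 1366 ± 128 and 1560 ± 276 CPM (n = 4 each, SD), and the calpain gene *Capn2* had the lowest adjusted p of this list, 0.061, with a log2 fold change of 0.91. Of 9 caspase genes other than *Casp14*, 6 were tested and 0 passed the cutoffs, and *Casp2* had the highest level, 26.9 ± 5.15 CPM in the control libraries (SD, n = 4).

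**Figure D5:**
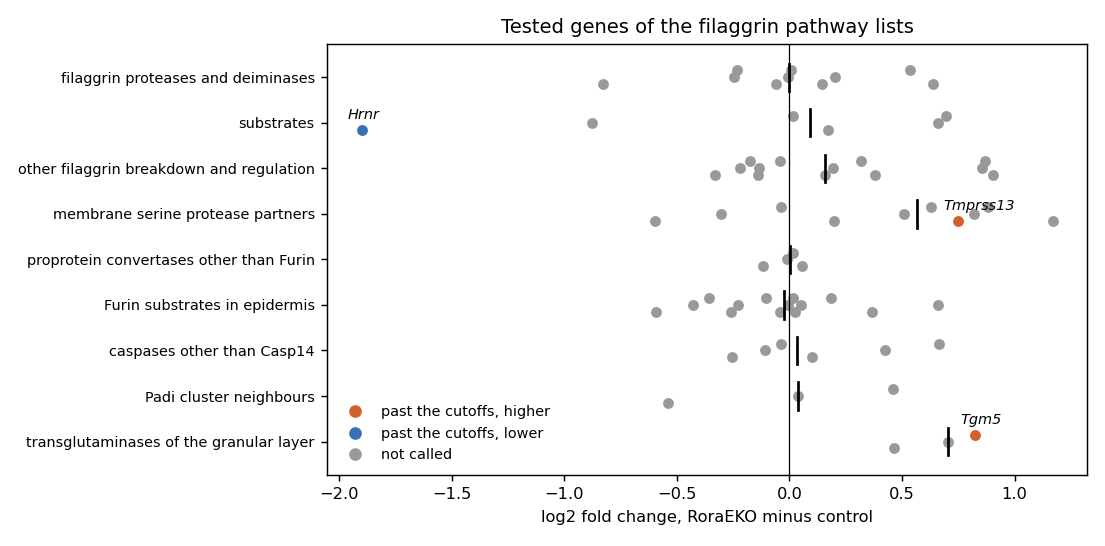
Log2 fold change (RoraEKO minus control) of each tested gene in the pathway lists. Points are genes, black bars are list medians, and colour marks genes past the cutoffs. *Hrnr* lies far to the left at -1.90, *Tmprss13* and *Tgm5* are the only coloured points on the right, and the list of proteases and deiminases centres on 0.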

How the data were processed

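Reads were trimmed (Skewer), aligned to GRCm39 (STAR 2.5.3a) and quantified per gene (RSEM) by the authors. The deposited table holds RSEM expected counts of 55416 Ensembl genes in 8 libraries, not scaled for library size or length. Its annotation release and strand setting are not given in the sources used here. Header names stand 1 field left of their values and were assigned in the order of the header. For testing, whole-number rounding was applied. Symbols and coordinates came from mouse GENCODE release 39, in which 54749 identifiers were found, and promoter sequences from RefSeq (table of GRCm38.p6, matched exactly in GRCm39). Genes were filtered with filterByExpr, TMM-scaled and fitted by edgeR 4.0.16, quasi-likelihood (legacy form) in R 4.3.3 over the whole table. SE values come from library-level log2 CPM with a prior count of 2. Lengths are those of the union of exons. The RSEM gene totals do not resolve transcripts.

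The members, gene lists and tests were chosen with earlier results of these data known. Genes named are the 10 members, *Rora*, *Xist*, *Ddx3y*, the substrates, the list genes past the cutoffs or most abundant, the genes most like each member, and genes overlapping a member. *Scnn1a*, *F2rl1*, *Spint1*, *Spint2*, *Capn2*, *Tgm1*, *Tgm3* and *Hal* were named from the lists after their values were seen. The lists of proprotein convertases, caspases, furin substrates, *Padi* neighbours and transglutaminases were added to those of filaggrin breakdown and membrane protease partners. Among the *Padi* neighbours (*Padi6*, *Arhgef10l*, *Rcc2* and *Sdhb*), 3 were tested and 0 passed the cutoffs. The procedure was tested on simulated data. Floors cover counting error only. Alternatives were RLE factors, library size alone, DESeq2 1.42.0, other edgeR tests, other filters, covariates, cutoffs and each library left out. Plots were drawn with matplotlib 3.10.9.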

Additional observations from a re-analysis of the deposited data

Results flagged for a closer look

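A library stood apart from the other 3 of its genotype, by the gap to the nearest of them as a share of the range, in 25 of 298 groups of 4 (8.39%). The groups were the 132 tested genes of the pathway and marker lists and the 17 summed marker levels in each genotype. About 1 in 20 would be marked by chance if the groups were independent and their values normal. The genes were read in the same libraries and the sums repeat marker genes, so 8.39% cannot be set against that rate. None of the 20 groups of the 10 members was among them.

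Control replicate A1 stood apart in 12 groups, in each as the highest library. They were *Krt28*, *Krt72* and *Krt73* of the inner root sheath (shares 0.856, 0.879 and 0.929), *Krt33b*, *Krt35*, *Krt85* and *Krt86* of the hair shaft (0.88, 0.884, 0.872 and 0.864), *Capns1* (0.847), *Spint1* (0.874), *Cd68* (0.901), *Elovl3* (0.946) and the sebocyte marker sum (0.91). *Krt72*, for example, was at 1407 CPM in A1 and at 63.3 to 225 CPM in the other control libraries.

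RoraEKO replicate B4 stood apart as the highest in *Krt10* (0.899), *Krt5* (0.952), *Krt14* (0.851), *Col17a1* (0.891) and the basal keratinocyte marker sum (0.882). *Krt14* was at 706 CPM in B4 and at 96.2 to 187 CPM in the other RoraEKO libraries, and *Krt10* at 46176 CPM against 34246 to 35454 CPM.

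Control replicate C6 stood apart in *Prss27* (0.83) and *Hbb-bt* (0.886) as the highest and in *Rcc2* (0.869) and *Mlana* (0.915) as the lowest. Control replicate C1 was the lowest in *Ivl* (0.924) and the highest in *H2-Ab1* (0.907), and RoraEKO replicate C2 was the highest in *Col1a2* (0.839) and the neutrophil marker sum (0.881).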

How the results depend on the processing

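The first letter of the sample title was tried as a replicate block. It called 1 of the 10 genes as higher (*Casp14*, adjusted p = 0.0354) and 1 as lower (*Furin*, adjusted p = 0.0206), 6 other pathway genes as higher and 2 as lower, and 1 marker gene as lower. Deviations from the genotype means correlated at 0.483, 0.0498 and 0.592 between the genotypes in letters A, B and C. Letters A and C thus shared deviations across genotypes, and letter B hardly did. The labels do not say what the letters mark and the study names no covariate, and the main fit used no block. Its spread therefore includes the differences between letters. The block changed the call of no other member. *Padi4* became 0.18 in that fit.

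Of the 10 genes, 1 was called higher by DESeq2, by the likelihood ratio test, with an adjusted p under 0.1 and with inner root sheath markers as a covariate, a fit chosen after seeing the data, and it was *Casp14* each time. With the inner root sheath covariate 1 was called lower, *Furin* (adjusted p = 0.00456), as with *Xist* as a covariate, and without control replicate C1. Leaving out 1 library gave 0 to 1 lower members.

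Over all genes, the number higher (302) was 478 with DESeq2, 176 with *Xist* as a covariate, 147 in the libraries with *Xist* near 0, 486 with the inner root sheath covariate, and 174 to 383 with 1 library left out, the lowest without control replicate B1. The number lower (423) was 167 in the libraries with *Xist* near 0.

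For the other pathway genes, the number higher (2) was 1 with library size alone, 8 with DESeq2, 7 with the likelihood ratio test or the inner root sheath covariate, 4 with all genes of at least 1 count, 6 at an adjusted p under 0.1, 0 with *Xist* as a covariate, 1 with *Xist* near 0, and 1 to 6 with 1 library left out. The number lower (1) was 0 with *Xist* as a covariate or near 0, 2 with the inner root sheath covariate, and 0 to 2 with 1 library left out. Marker genes (0 called) numbered 2 higher and 1 lower with DESeq2, 1 and 1 with the likelihood ratio test, 3 lower with the inner root sheath covariate, and 0 to 3 higher with 1 library left out.

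Log2 fold changes near 0 changed sign. With *Xist* as a covariate they were -0.50 (*Padi1*), -0.60 (*Padi3*) and -0.18 (*Prss8*), and in the libraries with *Xist* near 0 they were -0.42, -0.53 and -0.12. Both control libraries with *Xist* have titles that start with C. Both fits therefore mainly set controls A1 and B1 against knockouts of all letters, and their values also hold the difference between letters. *Padi3* was -0.024 with library size alone and -0.11 with the inner root sheath covariate. *Padi4* was 0.028 with RLE factors, 0.029 with DESeq2 and 0.058 with all genes of at least 1 count. With 1 library left out the ranges were -0.18 to 0.096 (*Asprv1*), -0.054 to 0.81 (*Padi1*), -0.97 to 0.076 (*Padi2*), -0.24 to 0.72 (*Padi3*), -0.25 to 0.51 (*Padi4*), -0.0028 to 0.35 (*Prss8*) and -0.35 to 0.048 (*St14*). The cause was not tested. Levels per kb by the longest transcript kept the control order of the 10 genes but moved *Blmh* from 122 to 260, *St14* from 26.9 to 58.4, *Furin* from 10.6 to 18.9 and *Padi4* from 8.12 to 15.2 CPM per kb. *Padi2* could not be tested with at least 10 counts in every library, and its level limits any statement on it.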
